A study of Mus musculus with 3 samples.

Results

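Among tumor-infiltrating CD8 T cells, those with transcripts of both Pdcd1 and Havcr2 were described, 2426 of 7727 CD8 T cells and of 31943 cells kept in all. They were chosen by UMIs (counts of single transcript molecules): at least 2 of Cd3e and at least 1 each of Cd8a and Cd8b1, with 0 of Cd4 and Ncr1 and no more than 3 of Mki67 plus Top2a, marked a CD8 T cell, and at least 1 UMI each of Pdcd1 and Havcr2 marked a Pdcd1+Havcr2+ cell. All cells came from subcutaneous tumors of MC38, a mouse colon carcinoma line, which the labels give as MC38-Ova (carrying ovalbumin) and the text of the study as MC38, grown in WT C57BL/6 Kaede mice, whose tumors were all treated with an isotype control. Tumors were photoconverted on day 13 and taken on day 15, so Kaede-red (KR+) cells were in the tumor at conversion and Kaede-green (KG+) cells were not converted there. Live CD45+TER119-Kaede+ cells were sorted, CD11b+NK1.1- myeloid cells were gated out, and 2 KG+ libraries (Kaede-green 1 and Kaede-green 2) and 1 KR+ library (Kaede-red) were made. The labels call the KG+ libraries biological replicates but do not say how many mice each holds, and color cannot be told apart from library for KR+ cells. Kaede marks every cell of the mouse, so color reports only residence at conversion, not antigen specificity.

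PD-1, encoded by Pdcd1, and TIM-3, encoded by Havcr2, are inhibitory receptors that T cells display after prolonged antigen stimulation. In tumors and chronic infection, T cells carrying both are usually called terminally exhausted, a state derived from stem-like TCF-1+ precursors, with the factor TOX as a main driver. Such cells are known to keep some cytotoxic granules while losing cytokine output and the capacity to renew.

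Depth differed between libraries and between classes. The files held 87193225, 129438292 and 175848894 UMIs in Kaede-green 1, Kaede-green 2 and Kaede-red. The median Pdcd1+Havcr2+ cell held 10887.5, 11075 and 14813.5 UMIs in the same order, against 8743, 8967.5 and 9218 in cells with neither transcript and 7249.5, 8641 and 10045 in cells with Pdcd1 only. Comparisons were therefore also run on cells matched for depth. The libraries shared 20, 28 and 36 cell barcodes pairwise. Values below are CPM, a gene's UMIs scaled to a total of 1000000 UMIs per class and library, given in the order Kaede-green 1, Kaede-green 2, Kaede-red; a summed level cannot separate more cells with a transcript from more RNA in each.

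Pdcd1+Havcr2+ cells made up a larger share of CD8 T cells in the KR+ library than in either KG+ library. They numbered 356 of 2064 CD8 T cells in Kaede-green 1, 17.2% with an exact Clopper-Pearson 95% interval of 15.6 to 18.9. In Kaede-green 2 they numbered 760 of 2629, 28.9% (27.2 to 30.7), and in Kaede-red 1310 of 3034, 43.2% (41.4 to 45.0). The intervals did not overlap, but they cover counting error only and the KG+ libraries already differed by more than that error. With every cell thinned to 3000 UMIs, the shares were 7.41%, 12.8% and 17.3%, in the same order. With at least 2 UMIs asked of each gene they were 7.51%, 14.9% and 27.6%. Cells with Pdcd1 only numbered 898, 1121 and 1368, cells with neither 787, 654 and 318, and cells with Havcr2 only 23, 94 and 38. Free RNA can give a UMI to a cell that does not make the transcript: of B cells (median 4051.5 UMIs in Kaede-green 1) 1.43% held Pdcd1 in Kaede-green 1 and 9.09% in Kaede-green 2, and 0 of 210 and 3.64% of 110 held Havcr2. Kaede-red had only 8 B cells. NK cells, at a median of 6001.5, 7597 and 13824 UMIs, held Pdcd1 in 2.12%, 7.48% and 9.10% and Havcr2 in 0.486%, 1.92% and 3.13%. The study reports that NK cells raise both genes as they change within the tumor, so these shares do not measure free RNA alone.

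**Figure D1:**
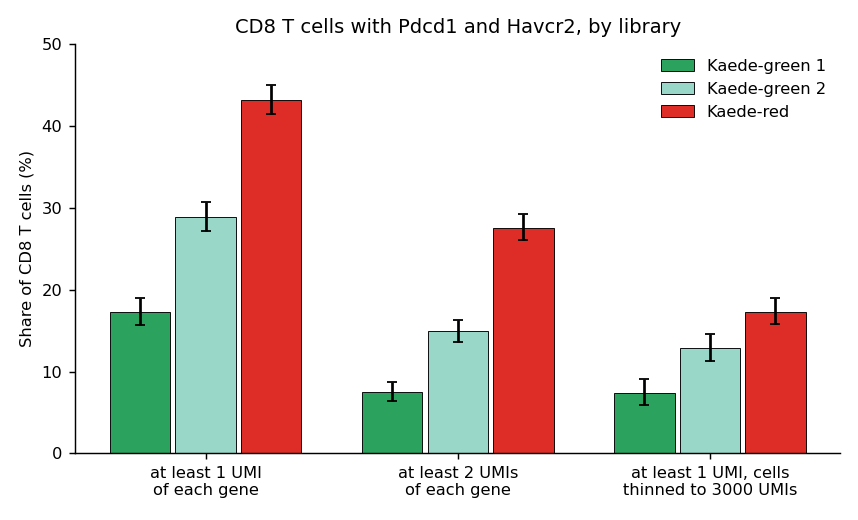
Share of CD8 T cells (%) with Pdcd1 and Havcr2 in each library under 3 definitions; bars are shares and whiskers exact 95% binomial intervals. Kaede-red was highest and Kaede-green 1 lowest under each definition. Thinning, which also left fewer CD8 T cells by the rule, lowered Kaede-red from 43.2% to 17.3%.

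The cells carried T cell transcripts outside the rule: Cd3d of the CD3 complex stood at 1387, 1402 and 1628 CPM, against 23.9, 40.7 and 92.8 in B cells, and Trac, the TCR alpha constant gene, at 866, 847 and 824 against 21.9, 31.5 and 46.4. The receptors that chose the cells are given as a description. Pdcd1 (chr1:94038305-94052553, GRCm38) stood at 646, 489 and 671 CPM, close to the 566, 464 and 617 CPM of cells with Pdcd1 only. Havcr2 (chr11:46454935-46481255) stood at 163, 182 and 186 CPM, and regulatory T cells, which also carry TIM-3 in tumors, at 54.6, 68.2 and 85.5 CPM. Cells just inside the threshold, with 1 UMI of each gene (11, 47 and 20 cells), held Lag3 at 275, 457 and 749 CPM and Gzmb at 1270, 1904 and 2346 CPM. Cells outside it with Pdcd1 only, which could hold any number of Pdcd1 UMIs, held Lag3 at 408, 368 and 555 CPM and Gzmb at 1493, 1453 and 1709 CPM. Gldc, Csf1 and Nrn1 were proposed as markers of these cells with earlier results of the same data in view, so their values are also a description: Gldc, the glycine decarboxylase, stood at 86.0, 45.3 and 96.6 CPM against 2.59, 4.54 and 10.5 in cells with neither receptor. Csf1, which encodes the macrophage growth factor M-CSF, stood at 76.3, 87.5 and 114 CPM against 3.14, 8.30 and 10.8. Nrn1, encoding neuritin, stood at 54.7, 40.9 and 72.0 CPM against 3.14, 8.15 and 11.8, but at 57.3, 50.8 and 83.5 CPM in cells with Pdcd1 only, so it did not set these cells apart from their nearest class.

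Summed UMIs of Pdcd1+Havcr2+ cells were compared with those of cells with neither transcript in the same library, with edgeR's quasi-likelihood test and the library as a block. Of 10850 genes tested, 4434 passed a Benjamini-Hochberg adjusted p of 0.05 (40.9%), 2345 higher (21.6%) and 2089 lower (19.3%), with a median log2 fold change of 0.01 over all genes. Cells of equal depth gave 1681 higher and 1665 lower. Against cells with Pdcd1 only, 2064 of 11423 genes passed (18.1%), 973 higher (8.52%) and 1091 lower (9.55%), with a median of -0.01. At equal depth the latter counts were 563 and 527, and without the library block 8 and 7, so the counts for lists against cells with Pdcd1 only rest on the block. Both comparisons share the Pdcd1+Havcr2+ sums, and with so many genes called, each list's count is to be read against those percentages.

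Several inhibitory receptors were higher in Pdcd1+Havcr2+ cells than in cells with neither, and the label exhausted-like held for many of its usual genes but not all. Of 19 inhibitory receptor and ectoenzyme genes tested, 10 rose, 3 fell and 6 were not called, with a median log2 fold change of 0.71. Lag3, a receptor for MHC class II, stood at 600, 545 and 683 CPM against 36.0, 70.5 and 152. Every Pdcd1+Havcr2+ sum lay above every sum of the other class, and Lag3 rose by 2.95 (log2, SE 0.26, edgeR adjusted p = 3e-05). Entpd1, the ectoenzyme CD39 that breaks down extracellular ATP, stood at 50.8, 54.5 and 83.4 CPM against 13.0, 18.2 and 17.2 and rose by 1.83 (SE 0.14). Cd200 rose by 2.74, Cd244a, encoding the 2B4 receptor, by 2.4 and Ctla4 by 2.02 on the log2 scale. Tigit rose by 1.33 but was scarce, at 13.0, 10.9 and 9.85 CPM. Cd101, used elsewhere to mark terminal exhaustion, was not called, at 21.2, 20.6 and 9.85 CPM against 15.9, 19.7 and 22.9, nor was Cd160, at 81.7, 71.4 and 49.3 CPM against 27.8, 43.2 and 54.7. Btla, an inhibitory receptor of naive and early T cells, fell by 2.95, Lair1 by 0.93 and Klrg1 by 0.62 on the log2 scale; Klrg1 stood under 8 CPM in these cells.

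Relative to Pdcd1-only cells, the receptors differed less: 8 of 19 rose and 1 fell, with a median of 0.18. Cd244a stood at 24.2, 20.2 and 42.1 CPM against 7.15, 7.89 and 17.8 and rose by 1.38 (SE 0.11, edgeR adjusted p = 7.3e-06). Entpd1 and Cd200r1 rose by 1.00 each, Ctla4 by 0.49 and Lag3 by 0.48, while Btla fell by 1.5. Tigit had a log2 difference of 0.29 and was not called.

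Of 15 transcription factors of exhaustion tested against cells with neither receptor, 9 rose, 1 fell and 5 were not called (median 0.61). Leaving out Kaede-green 2 gave 7 higher and a median of 0.34. Leaving out Kaede-green 1 gave 4 lower, and leaving out Kaede-red gave a median of 0.79. Id2, an antagonist of E proteins that favors effector fate, stood at 816, 993 and 956 CPM against 153, 229 and 255 and rose by 2.07 (SE 0.08). Rbpj, the DNA-binding partner of Notch, rose by 1.86 and Prdm1, encoding BLIMP-1, by 1.39. Tox stood at 43.4, 47.9 and 38.8 CPM against 25.9, 21.1 and 35.6, rising by 0.61 (SE 0.16, edgeR adjusted p = 0.014). It was highest, however, in cells with Pdcd1 only, at 84.9, 50.01 and 80.4 CPM, and against these it fell by 0.70 (SE 0.14, edgeR adjusted p = 0.0051). The gap was small in Kaede-green 2 and wide in the other libraries. Eomes, a T-box factor of memory and early dysfunctional cells, fell by 1.52 against cells with neither and by 0.86 against cells with Pdcd1 only. In the latter comparison 4 of 15 factors rose, among them Id2 (0.92), Rbpj (0.60) and Prdm1 (0.57), and 3 fell, with a median of -0.03. The remaining factor to fall there, Maf, did so by 0.67, but its log2 difference was 0.018 at equal depth.

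Genes of naive, stem-like and memory T cells were low. Of 16 tested, 15 fell against cells with neither receptor and 1 rose (median -2.33), and 13 fell and none rose against cells with Pdcd1 only (median -1.07). Tcf7, which encodes TCF-1, stood at 14.0, 10.9 and 3.32 CPM against 143, 130 and 114 in cells with neither and 64.5, 49.2 and 26.8 in cells with Pdcd1 only. The 3 classes did not overlap, and Tcf7 fell by 4.09 (SE 0.25, edgeR adjusted p = 3.8e-06) and by 2.45 (SE 0.14). Cxcr5, the receptor that takes lymphocytes into follicles, fell by 3.84 and Id3, an E protein inhibitor of stem-like cells, by 3.65 against cells with neither. Slamf6, a surface marker of the precursor state, stood at 16.6, 13.4 and 3.92 CPM against 42.3, 36.3 and 25.8 and fell by 1.83. Dapl1 fell most against cells with Pdcd1 only, by 3.20, followed by Tcf7 and by S1pr1 with 1.68; S1pr1 encodes the receptor that guides T cells out of tissue. Il7r, the survival receptor of memory cells, was the gene that rose, by 0.53, and stood at 285, 294 and 296 CPM.

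**Figure D2:**
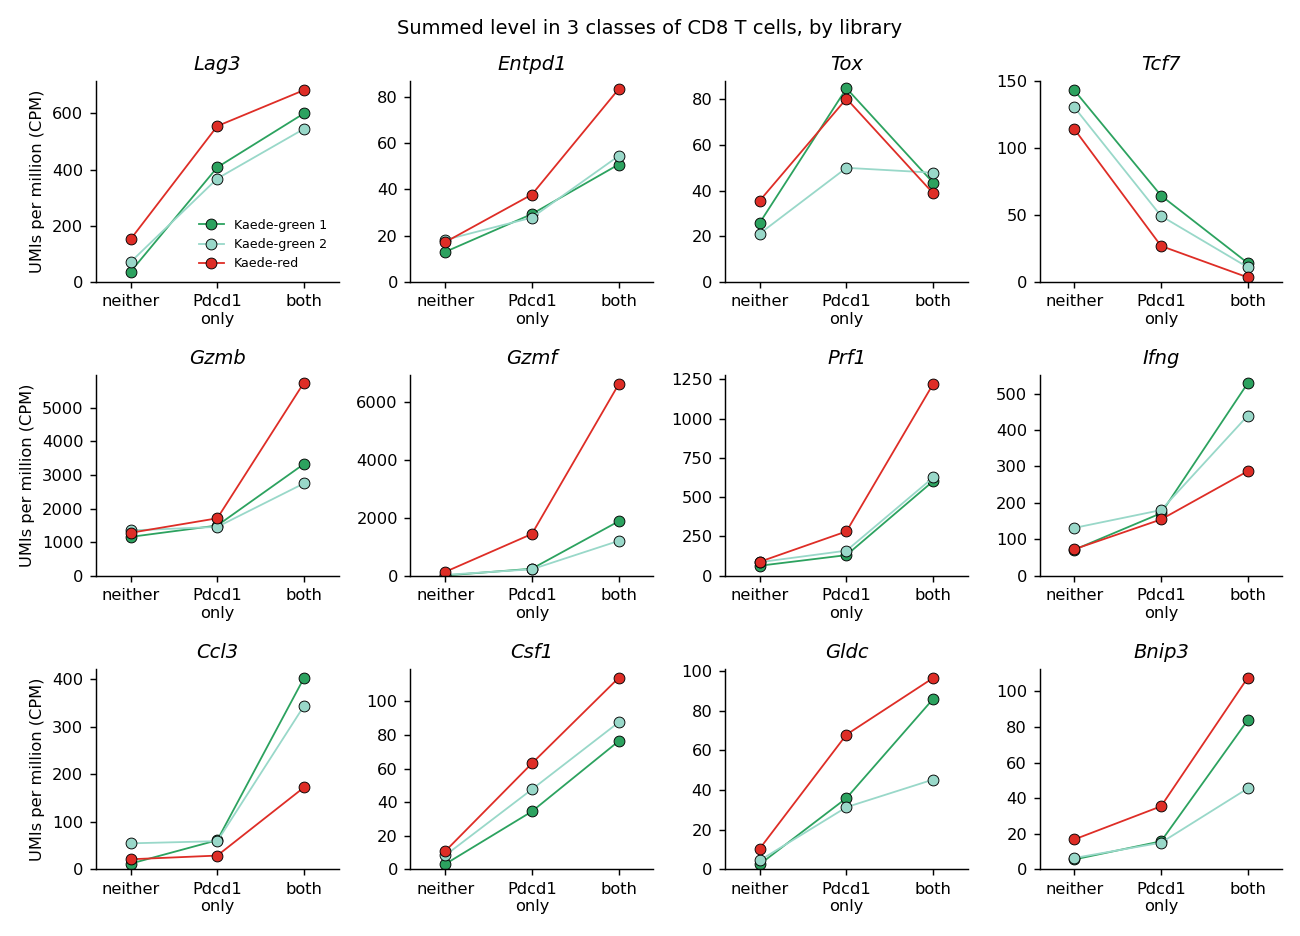
Summed level (CPM, linear axis from 0) of 12 genes in CD8 T cells with neither transcript, with Pdcd1 only and with both, 1 line for each library. Tcf7 falls over the 3 classes in every library, Prf1 climbs from at most 88.1 to at least 602 CPM, and Tox is highest with Pdcd1 only.

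Most granule genes were high in Pdcd1+Havcr2+ cells. Of 17 granzyme and granule genes tested against cells with neither receptor, 13 rose, 3 fell and 1 was not called (median 1.21). Gzmb, the main granzyme of cytotoxic T cells, stood at 3329, 2750 and 5755 CPM against 1154, 1347 and 1276 and rose by 1.49 (SE 0.17, edgeR adjusted p = 0.00014). Prf1, which encodes the pore-forming perforin, stood at 602, 625 and 1221 CPM against 63.0, 85.5 and 88.1 and rose by 3.21 (SE 0.15). Both were higher in each library with no overlap between classes. The granzymes encoded beside Gzmb on chromosome 14 went further: Gzmf stood at 1879, 1201 and 6619 CPM against 3.68, 26 and 128 and rose by 6.24 (SE 0.46), Gzme by 5.12 and Gzmd by 5.04. Gzmd and Gzme are close in sequence, so the split of reads between them is uncertain. For comparison, regulatory T cells held Gzmf at 4.96, 20.9 and 55.3 CPM and B cells at 5.98, 21.0 and 23.2, and cells with neither receptor were close to those levels in the KG+ libraries. NK cells held Gzmf at 22.4, 160 and 1252 CPM, below Pdcd1+Havcr2+ cells in every library. A UMI of Gzmf was found in 22.8%, 33.4% and 73.1% of Pdcd1+Havcr2+ cells and in 5.05%, 15.3% and 34.9% of regulatory T cells (median depth 8710, 8989 and 7004 UMIs).

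3 granule genes fell. Gzmm, an orphan granzyme of innate-like and memory cells, fell by 2.52 to 8.21, 4.78 and 0.794 CPM, and Lamp1, a membrane protein of lysosomes, by 0.29. Gzmk, typical of precursor-like CD8 T cells, stood at 76.3, 72.2 and 40.9 CPM against 83.7, 90.7 and 81.1 and fell by 0.56, but in cells of equal depth its log2 difference was 0.063. Compared with Pdcd1-only cells, 12 of 17 granule genes rose and 3 fell (median 0.35), with 12 higher and 0 lower at equal depth. Gzmg rose by 3.98, Gzmd by 2.85, Gzmf by 2.54, Prf1 by 2.10 and Gzmb by 1.28 (SE 0.12, edgeR adjusted p = 1.7e-05).

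Because the chromosome 14 granzymes moved together, the 250 bases before their starts (RefSeq, GRCm38.p6) were searched on both strands for TGTGGT, the core bound by Runx factors, which act on cytotoxic genes. Each of Gzmb, Gzmc, Gzmd, Gzme, Gzmf and Gzmg held 2 matches; of 32851 promoters 14.0% held at least 1 and 1.27% at least 2. On the granule list 12 of 18 promoters, for 16 of 17 genes found in the table, held a match. The other motifs searched were ACGTG, the core of hypoxia response elements, in 4 of the 18 (16.6% of all promoters), TGANTCA, bound by AP-1, in 1 (6.75%), and TGGAAA, bound by NFAT, in 5 (18.6%). The promoters of Gzmc to Gzmg are close copies, with 79.2% to 95.2% of 250 bases identical, so their matches are not independent, and Gzmb shared 56.4% to 60.8% with them. A match describes the sequence and is not a bound site. Of the genes that chose the cells, Havcr2 held 1 match and Pdcd1 held 0. The promoters of Gzmb, of Gzmf and of Havcr2 are shown on the strand of the gene with matches in capitals (ACCACA is the same motif on the other strand).
Gzmb, chr14:56262335-56262584, minus strand: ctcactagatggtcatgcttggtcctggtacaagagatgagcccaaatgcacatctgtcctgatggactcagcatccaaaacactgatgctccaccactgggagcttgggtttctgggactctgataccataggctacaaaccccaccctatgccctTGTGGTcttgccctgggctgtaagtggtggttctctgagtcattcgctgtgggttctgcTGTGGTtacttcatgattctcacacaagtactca
Gzmf, chr14:56211408-56211657, minus strand: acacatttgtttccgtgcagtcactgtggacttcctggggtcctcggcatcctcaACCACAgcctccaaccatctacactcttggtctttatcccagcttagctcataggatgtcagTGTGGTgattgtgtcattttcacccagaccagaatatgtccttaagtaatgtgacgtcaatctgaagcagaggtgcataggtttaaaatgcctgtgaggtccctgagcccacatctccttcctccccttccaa
Havcr2, chr11:46454681-46454930, plus strand: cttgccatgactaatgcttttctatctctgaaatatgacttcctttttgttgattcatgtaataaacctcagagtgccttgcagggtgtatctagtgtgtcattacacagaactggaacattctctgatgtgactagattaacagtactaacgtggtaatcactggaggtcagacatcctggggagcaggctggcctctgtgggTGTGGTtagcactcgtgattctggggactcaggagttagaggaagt

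Chemokine and cytokine transcripts were also high. Of 16 tested against cells with neither receptor, 9 rose, 2 fell and 5 were not called (median 1.59). Csf1 rose by 3.64, Ccl3 by 3.41 and Spp1, encoding osteopontin, by 3.15. Ccl3, an inflammatory chemokine, stood at 403, 344 and 173 CPM against 12.1, 54.8 and 21.3 in cells with neither and 61.4, 59.4 and 29.1 in cells with Pdcd1 only. Ifng stood at 529, 440 and 287 CPM against 71.2, 131 and 72.5 and rose by 2.12 (SE 0.18, edgeR adjusted p = 1.9e-05), with no overlap between classes. Tnf was not called, at 20.5, 22.3 and 20.8 CPM against 30.9, 18.0 and 20.7. Cxcl10, an interferon-induced ligand of CXCR3, fell by 1.18. Ccl5 fell by 0.28, a direction that turned at equal depth, where it rose by 0.53. Against cells with Pdcd1 only, 7 of 17 rose, led by Ccl3 (2.61), Ccl4 (1.74) and Spp1 (1.27), and 4 fell (median 0.23). Lif fell by 2.19 from levels under 1.5 CPM, Cxcl10 by 1.36 and Csf2, encoding GM-CSF, by 1.17.

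Receptors for chemokines changed in both directions. Of 9 tested against cells with neither receptor, 4 rose, 2 fell and 3 were not called (median 0.04). Cxcr6, which holds T cells near CXCL16-bearing dendritic cells, stood at 490, 499 and 500 CPM against 71.3, 98.1 and 132 and rose by 2.27. Ccr8 rose by 2.76 and Cx3cr1 by 2.32. Cxcr3, the receptor of effector T cells for CXCL9 and CXCL10, stood at 19.7, 27.9 and 7.43 CPM against 72.8, 82.2 and 70.3 and fell by 2.26, and Cxcr4 fell by 2.14. Relative to Pdcd1-only cells, 2 of 10 rose and 3 fell (median -0.28); Cxcr6 rose by 0.75, and Ccr6, at 3.01, 2.57 and 1.64 CPM in those cells, fell by 3.38.

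Adhesion and egress genes changed in both directions, 8 up and 7 down of 16 (median 0.38) against cells with neither, and 5 and 5 of 15 (median 0.14) against cells with Pdcd1 only. Rgs16, a regulator of chemokine receptor signals, rose by 3.05, Itgav, an integrin subunit that takes part in TGF-beta activation, by 1.98 and Itga1, the collagen-binding CD49a subunit, by 1.28. Klf3, a factor of circulating lymphocytes, stood at 8.86, 8.03 and 2.43 CPM against 112, 99.2 and 86.2 and fell by 4.23. Itga4 fell by 1.45. S1pr5, an egress receptor, was at 0, 0.203 and 0 CPM against 1.64, 2.51 and 0.954.

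Costimulatory receptors were partly higher: 5 of 12 rose and 2 fell (median 0.26) against cells with neither, and 3 rose and 3 fell (median 0.00) against cells with Pdcd1 only. Tnfrsf4, encoding OX40, rose by 2.65, Tnfrsf9, encoding 4-1BB and induced by antigen, by 2.23 and Icos by 1.01. Tnfrsf9 stood at 761, 681 and 886 CPM against 113, 155 and 215. Cd7 fell by 2.37, and Cd28 by 0.22, a difference of -0.04 at equal depth.

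Of 25 genes of TCR signaling and its negative regulators, 12 rose and 4 fell against cells with neither (median 0.21), and 6 rose and 1 fell against cells with Pdcd1 only (median 0.04). Those with the widest rise are brakes on the pathway. Dusp4, a MAP kinase phosphatase, stood at 101, 126 and 78.3 CPM against 12.8, 20.5 and 21.0 and rose by 2.45; Ubash3b, a phosphatase of TCR kinases, rose by 2.04 and Spry1 by 1.78. Dgka, which limits diacylglycerol signals, fell by 0.88. Of 19 cytokine receptor and feedback genes, 10 rose and 5 fell (median 0.48), and 7 rose and 5 fell against cells with Pdcd1 only (median 0.19). Il2ra, the high-affinity IL-2 receptor chain, rose by 1.94, Socs2 by 1.49 and Cish by 1.12, both feedback inhibitors of STAT5 signals. Il6ra fell by 4.09 and Socs3, an inhibitor of STAT3 signals, by 2.48.

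Transcripts of glycolysis and of the response to low oxygen were high. Of 24 tested, 21 rose, 1 fell and 2 were not called against cells with neither receptor (median 1.18), and 21 rose and 0 fell against cells with Pdcd1 only (median 0.67). At equal depth, 20 rose and 1 fell in the former. Bnip3, a mitophagy gene induced by HIF-1, stood at 83.9, 45.5 and 108 CPM against 5.59, 6.42 and 16.9 and rose by 3.05 (SE 0.19, edgeR adjusted p = 3.9e-06). Slc16a3, the lactate exporter MCT4, rose by 2.35 and Tpi1, a glycolytic isomerase, by 2.00. Pgk1, phosphoglycerate kinase, stood at 724, 546 and 945 CPM against 170, 156 and 249, with no overlap. Pdk1, a kinase that holds pyruvate out of mitochondria, fell by 0.37. Compared with Pdcd1-only cells, Bnip3 rose by 1.81. The 250 bases before each start were searched for ACGTG, the core of hypoxia response elements, on both strands: 15 of 31 promoters for 22 of the 24 genes held it, against 16.6% of all promoters. The Runx core was in 4 of these 31, the NFAT motif in 4 and the AP-1 motif in 1. Tpi1 held none. Bnip3 and Pgk1 held 2 matches each, shown in capitals; in Bnip3 they overlap as the palindrome CACGTG, and in Pgk1 CACGT is the match on the other strand.
Bnip3, chr7:138909507-138909756, minus strand: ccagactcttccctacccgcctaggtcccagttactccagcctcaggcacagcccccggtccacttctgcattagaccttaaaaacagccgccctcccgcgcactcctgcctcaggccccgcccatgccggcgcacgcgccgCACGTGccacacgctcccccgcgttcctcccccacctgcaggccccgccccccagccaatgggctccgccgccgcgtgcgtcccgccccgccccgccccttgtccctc
Pgk1, chrX:106186850-106187099, plus strand: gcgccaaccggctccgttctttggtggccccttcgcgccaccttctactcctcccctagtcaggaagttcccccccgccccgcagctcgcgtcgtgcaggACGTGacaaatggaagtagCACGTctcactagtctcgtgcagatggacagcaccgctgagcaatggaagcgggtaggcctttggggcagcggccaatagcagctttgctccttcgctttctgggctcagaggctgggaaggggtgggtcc

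Genes of serine, glycine and one-carbon metabolism changed less. Of 14 tested, 7 rose and 1 fell against cells with neither (median 0.30), but 3 rose and 3 fell at equal depth. Gldc rose by 3.75, or 3.44 at equal depth, and Asns, asparagine synthetase, by 1.98. Psat1 rose by 0.59, with a difference of 0.10 at equal depth, and Shmt2 fell by 0.52. Against cells with Pdcd1 only, 4 of 14 rose, Gldc by 0.72. Fewer cell cycle genes were called at equal depth, where fewer cells also entered the sums (312, 533 and 273 of each class). The rule limits Mki67 and Top2a, and of 23 other genes 14 rose and 1 fell (median 0.58), whereas at equal depth 8 of 21 rose and 3 fell (median 0.00). Cdkn2a, a cell cycle inhibitor, rose by 2.83 from 0.818, 1.25 and 0.318 CPM, Ccnb2 by 2.43 and Tk1 by 1.81, while Tubb5 fell by 0.60. Relative to Pdcd1-only cells 7 of 23 rose and none fell.

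Interferon-stimulated genes were low in Pdcd1+Havcr2+ cells. Of 16 tested, 14 fell and 1 rose against cells with neither (median -1.07), and 15 fell and 0 rose against cells with Pdcd1 only (median -0.80). Oasl2, an antiviral gene of the OAS family, stood at 13.2, 12.3 and 5.60 CPM against 78.1, 77.4 and 61.4 and fell by 2.98 (SE 0.15). Oasl1 fell by 2.02 and Ifit3 by 1.58. Ifi27l2a rose by 0.17 and was not called at equal depth, where 13 genes of the list fell and 0 rose. Of 16 immediate early and heat-shock genes, 2 rose and 9 fell (median -0.50), and 1 rose and 6 fell against cells with Pdcd1 only (median -0.10). Fos fell by 1.12, Jun by 1.10 and Zfp36 by 0.88, while Atf3 rose by 1.02 and Fosb by 0.32.

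**Figure D3:**
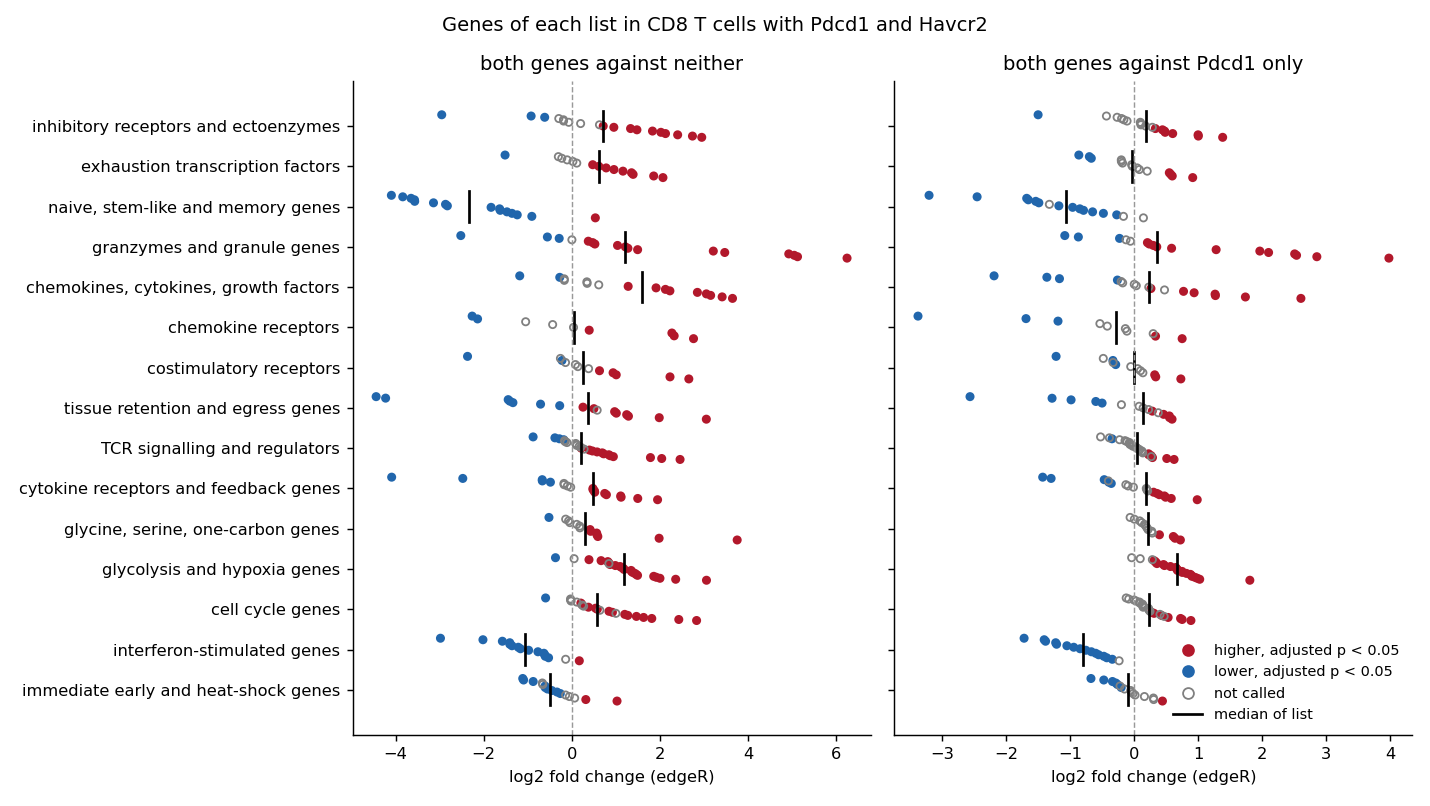
log2 fold change (edgeR) of each tested gene of 15 lists in Pdcd1+Havcr2+ cells, against cells with neither transcript (left) and with Pdcd1 only (right); filled points passed an adjusted p of 0.05, open points did not, and bars are list medians. The stem-like list lies to the left (medians -2.33 and -1.07) and the glycolysis list to the right (1.18 and 0.67) in both panels.

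Outside the lists, the widest rises against cells with neither receptor were of Filip1 (6.25), Myo10 (4.38), Gipc2 (4.30), Slc17a6 (3.83) and Serpinb9b (3.76). Filip1, which encodes a filamin-interacting protein, stood at 15.6, 16.9 and 37.7 CPM against 0.136, 0 and 0.954, so few UMIs in the latter that the size of its change is uncertain. Myo10, an unconventional myosin of filopodia, stood at 49.9, 50.6 and 82.1 CPM against 0.954, 2.66 and 5.72, and Serpinb9b belongs to the serpins that inhibit granule proteases. Slc17a6, the vesicular glutamate transporter 2, was as high in cells with Pdcd1 only, at 13.4, 35.9 and 40.2 CPM against 17.9, 35.6 and 35.9. The widest falls were of Igfbp4 (5.65), Tdrp (4.49), Klra6 (4.47), Tmem108 (4.46) and Nsg2 (4.35); Igfbp4 stood at 1.73, 1.22 and 0.0934 CPM against 49.1, 19.7 and 36.9. Compared with Pdcd1-only cells, the genes with the widest rise were Filip1, Il1r2, Adam8, Mt1 and Mt2. Il1r2, the decoy receptor for IL-1, stood at 63.5, 32.4 and 123 CPM against 14.4, 11.2 and 26.4 and rose by 2.03. Adam8, a metalloprotease, rose by 1.65. The metallothionein Mt1 stood at 472, 489 and 832 CPM against 125, 217 and 292 and rose by 1.52, and Mt2 rose by 1.5. Ifit3b, Iigp1, Ifit1bl1, Tespa1 and Crim1 fell most, the first 3 being interferon-induced; Ifit3b fell by 1.62.

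Variable genes of the TCR, a readout the rule did not use, were also compared. Against cells with neither receptor, 1 of 15 Trbv genes rose (Trbv14, by 1.69) and 2 fell (Trbv1 by 2.35 and Trbv3 by 1.80), and 1 of 11 Trav genes rose and 2 fell. Against cells with Pdcd1 only, 0 of 17 Trbv genes rose and 3 fell (Trbv13-3 by 1.68, Trbv3 by 1.37 and Trbv12-2 by 0.66), and 1 of 17 Trav genes rose. The share of Trbv genes called in the latter, 3 of 17, was near the background of 18.1%. Trbv3 was lower in both comparisons, which share the Pdcd1+Havcr2+ sums. Among Pdcd1+Havcr2+ cells with UMIs of exactly 1 Trbv gene (104, 249 and 412 cells), Trbv3 took 0.962%, 2.01% and 2.67%, against 8.02%, 6.43% and 10% of cells with neither receptor and 7.46%, 3.63% and 4.59% of cells with Pdcd1 only. Trbv29 took 1.92%, 16.5% and 3.64%. Its exact interval in Kaede-green 2, 12.1% to 21.7%, lay above those of the other libraries. In cells with Pdcd1 only Trbv29 took 4.82%, 10.6% and 5.68%, highest in Kaede-green 2 too, and in cells with neither 3.70%, 8.19% and 8.33%. Trbv12-2 took 19.2%, 8.43% and 15.0%, against 17.3%, 10.5% and 20% of cells with neither receptor and 24.1%, 13.3% and 19.7% of cells with Pdcd1 only. The 3′ assay reads few TCR variable regions, so these shares rest on a minority of cells.

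Marker genes of other cells were summed in Pdcd1+Havcr2+ cells. The 14 myeloid and dendritic genes summed to 477, 520 and 409 CPM, mostly Cst3, with C1qa, Csf1r and Fcgr1 at 0 in Kaede-green 1. The 6 B cell genes summed to 80.2, 48.2 and 15.2 CPM, the 7 tumor and stromal genes to 12.8, 12.3 and 7.52 with Krt8 at 0 in every library, and the 5 mast cell genes to 8.86, 11.2 and 17.7, nearly all Kit, with Ms4a2 at 0 in every library. In cells with Pdcd1 only, the mast cell genes summed to 16.8, 13.4 and 142 CPM, led in Kaede-red by Mcpt4 at 44.4. Their part in the comparison with that class was not tested. The 9 NK genes summed to 401, 666 and 507 CPM, led by Klre1, against 335, 551 and 395 in cells with neither receptor, and 2 of them rose and 3 fell. The 6 gamma-delta T cell genes, led by Tcrg-C2, summed to 134, 100 and 169 CPM, with 3 of 5 tested rising. The 6 regulatory and CD4 T cell genes summed to 857, 744 and 936 CPM against 114, 159 and 238, of which Capg, also made by other activated T cells, gave 799, 691 and 874, and Il4 was at 0; 3 of 5 tested rose. A UMI of Cd79a, Lyz2, C1qa, C1qb, C1qc, Cd68, Csf1r, Foxp3, Klrb1c or Trdc, used to mark cells with transcripts of other types, was seen in 21.9%, 32.6% and 20.5% of Pdcd1+Havcr2+ cells, and without those cells 2184 genes were higher and 1973 lower than in cells with neither receptor.

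Havcr2 itself varied among the cells, from 1 UMI in 188, 328 and 452 cells and 2 in 82, 192 and 289 to 3 or more in 86, 240 and 569. Of 5195 genes with at least 20 CPM in some library, 157 were ordered upward over these 3 bins in every library and 146 downward; genes are named here after their values were seen, and no test was made. Prf1 went from 310 over 491 to 1130 CPM in Kaede-green 1, from 375 over 478 to 991 in Kaede-green 2 and from 630 over 872 to 1722 in Kaede-red. Gzmb went from 2086 to 5611, from 1948 to 3944 and from 3017 to 7809 CPM between the outer bins. Gzmc, Gzme, Gzmf, Ccl3, Spp1, Entpd1, Cd244a and Il2ra were ordered the same way. So were at least 8 of the 22 glycolysis genes at that level, Bnip3 and Pgk1 among them, beside 157 of 5195 genes in all. Ifit3 went the other way, from 153 to 33.0, from 163 to 82.2 and from 145 to 89.9 CPM, as did Rtp4, Ifi203, Itgb1, Cxcr3 and Cd101. Lag3 and Tox had no common order: Lag3 was at 590, 623 and 597 CPM over the bins of Kaede-green 1. Depth also climbed over the bins, from a median of 8935.5 to 13692 UMIs in Kaede-green 1, 9927 to 12731 in Kaede-green 2 and 13015.5 to 16908 in Kaede-red, and its part in these orders was not tested.

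**Figure D4:**
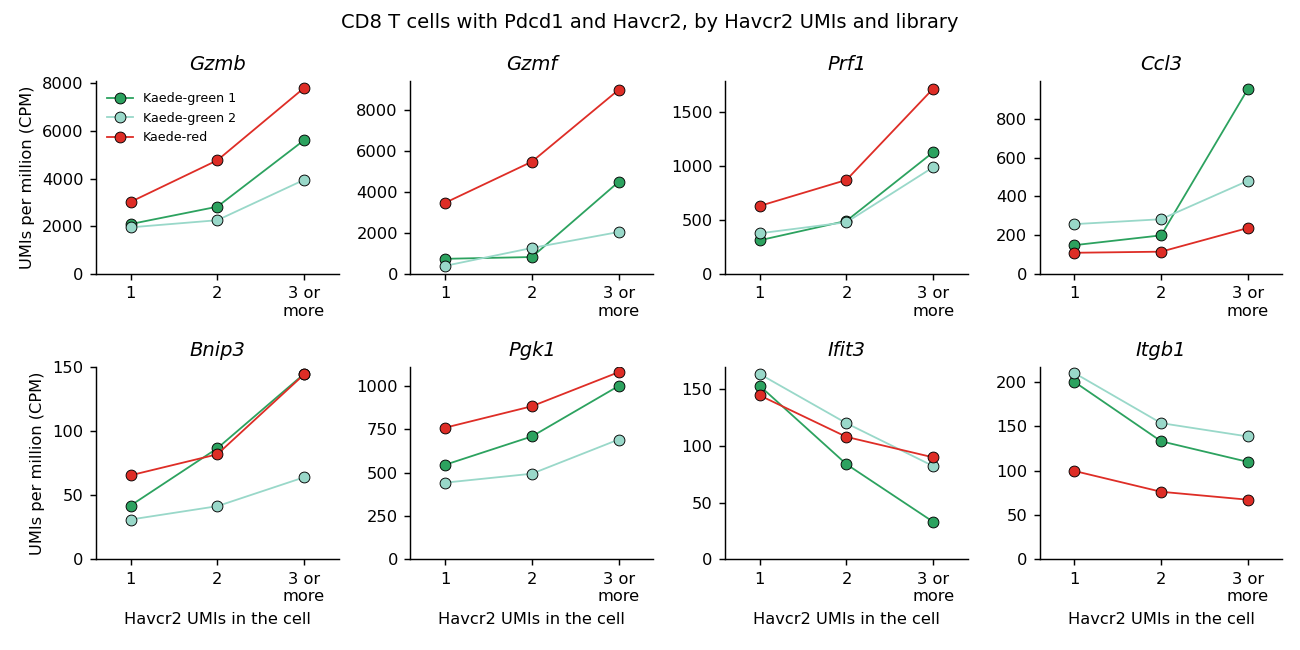
Summed level (CPM, linear axis from 0) of 8 genes in Pdcd1+Havcr2+ cells with 1, 2 and 3 or more Havcr2 UMIs, 1 line for each library. Gzmb, Gzmf, Prf1, Ccl3, Bnip3 and Pgk1 climb in every library (Gzmb from 3017 to 7809 CPM in Kaede-red), and Ifit3 and Itgb1 decline.

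To describe how KR+ cells differed from KG+ cells within the same class, the Kaede-red library was set against both KG+ libraries. With 1 KR+ library there is no test, so a gene was called by size: at least 1.5 times higher or lower than in both KG+ libraries, the same way, and by more than the KG+ libraries differed from each other. Of 5195 genes with at least 20 CPM in some library, 203 were called (3.91%), 49 higher (0.943%) and 154 lower (2.96%). In cells with neither receptor, 130 of 5057 were called (2.57%), 64 higher (1.27%) and 66 lower (1.31%). Asking for a 2-fold difference left 12 higher and 60 lower in Pdcd1+Havcr2+ cells, and thinning cells to 3000 UMIs gave 77 higher and 227 lower. The thinned cells were still chosen by their full UMIs, so these counts cannot show how depth acts on which cells were chosen. Thinned, cells with neither receptor had 159 higher and 156 lower, against 64 and 66 unthinned.

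Cytotoxic transcripts were higher in KR+ Pdcd1+Havcr2+ cells, with 7 of 16 granule genes considered called higher and 2 lower. Gzmf stood at 6619 CPM in Kaede-red (exact Poisson 95% interval 6585 to 6654) against 1879 and 1201, a log2 ratio of 1.82 to the nearer KG+ library. Prf1 stood at 1221 CPM (1207 to 1236) against 602 and 625, a ratio of 0.97, while in cells with neither receptor it was 88.1 against 63.0 and 85.5. Gzmb was 0.79 above the nearer KG+ library, and Gzmc, Gzmd, Gzme and Gzmg were also called higher. With 2 UMIs of each gene asked, Gzmc (0.76), Gzmd (1.08) and Gzme (0.94) were no longer called. Gzmc was also not called without cells holding other cells' markers. In cells with neither receptor Gzmd and Gzme were called higher in Kaede-red too, with log2 ratios of 2.75 and 2.72 to the nearer KG+ library. Regulatory T cells also held more granzyme UMIs in that library: Gzmf stood at 55.3 CPM in Kaede-red against 4.96 and 20.9, and Gzmc at 703 against 38.2 and 97.2. Gzmc in Pdcd1+Havcr2+ cells stood at 2217 CPM in Kaede-red against 1009 and 540. Gzmf in B cells, only 8 of which were in Kaede-red, was 23.2 CPM against 5.98 and 21.0. The source of granzyme UMIs in these other cells and its part in the color difference were not tested. Gzma and Gzmk were lower; Gzma stood at 334 CPM against 1182 and 1124 and was as much lower in cells with neither receptor, at 192 against 630 and 1028.

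Cytokine and chemokine transcripts were lower in KR+ cells, 6 of 13 considered, with none higher. Ifng stood at 287 CPM against 529 and 440, Ccl3 at 173 (167 to 178) against 403 and 344, and Xcl1, the ligand that draws XCR1+ dendritic cells, at 151 against 578 and 545. Ccl4, Ccl5 and Ccl1 were also called lower. In cells with neither receptor Ifng stood at 72.5 CPM against 71.2 and 131, and Ccl3 at 21.3 against 12.1 and 54.8, so neither was called there, whereas Ccl5 was called lower there too, at 2173 against 4198 and 5295. With 2 UMIs of each gene asked, Ifng was no longer called in Pdcd1+Havcr2+ cells (-0.45). The share of Pdcd1+Havcr2+ cells with a UMI of Ifng did not show the same order. Thinned to 3000 UMIs, it was 40.0% and 38.5% in the KG+ libraries and 40.2% in Kaede-red with overlapping exact intervals, and with all UMIs 66.9%, 66.7% and 76.3%. Regulatory T cells had thinned shares of 3.59%, 8.33% and 4.88%.

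Of 9 naive, stem-like and memory genes considered, 4 were called lower in KR+ cells and none higher. S1pr1, the receptor by which T cells leave tissue, stood at 2.62 CPM (1.98 to 3.40) against 26.8 and 23.5, a log2 ratio of -3.16, and a ratio of -0.61 in cells with neither receptor. Klf2, the factor that drives S1pr1, stood at 34.7 CPM against 89.9 and 95.02. Both were called lower in cells with neither receptor too, Klf2 at -0.61. In Pdcd1+Havcr2+ cells Ccr7, which guides T cells into lymph nodes, was called lower. Chemokine receptors Cxcr4 (17.2 CPM against 69.8 and 62.9), Cxcr3, Cx3cr1 and Ccr2 were lower, 4 of 6 considered. Of 13 adhesion and egress genes, Itga4, Itgb1, Itgae and Itgb7 were lower and Rgs2 higher. Itgae, the CD103 chain of resident T cells, stood at 7.05 CPM against 27.4 and 20.2. With 2 UMIs of each gene asked, S1pr1, Ccr2 and Itga4 were no longer called.

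Of 14 inhibitory receptor and ectoenzyme genes considered, 5 were called by color: Entpd1 (83.4 CPM against 50.8 and 54.5), Cd244a and Cd38 were higher and Cd101 and Nt5e lower. Lag3, at 683 CPM against 600 and 545, was not called, though in cells with neither receptor it was called higher in Kaede-red, as was Cd96. With 2 UMIs of each gene asked, Entpd1 (0.49) and Cd244a (0.48) were no longer called. Eomes and Nr4a1, a target of TCR signals, were lower, Eomes also in cells with neither receptor (-0.68), and Tox, at 38.8 CPM against 43.4 and 47.9, was not called. Il2ra, Socs3, Dusp5, Cd7, Zfp36 and Nfkbia were also lower. No gene was called in the lists for glycolysis (22 considered), one-carbon metabolism (8), cell cycle (15) or interferon-stimulated genes (14). Bnip3, for instance, stood at 108 CPM against 83.9 and 45.5. In cells with neither receptor, Tpi1, Gapdh and Ero1l of the glycolysis list were called higher in Kaede-red, and Oasl1 of the interferon list lower. Outside the lists, the highest ratios in Pdcd1+Havcr2+ cells were of Klra5 (1.67), Upp1 (1.44), Ly6g5b (1.33), Fcrl6 (1.32) and Filip1 (1.16). The lowest were of Arl5c (-2.13), Nfkbid (-1.94), Tagap (-1.88), Nfkbiz (-1.70) and Cd83 (-1.67), of which Arl5c was also called lower in cells with neither receptor (-0.73); Nfkbid, Nfkbiz and Cd83 are induced by NF-kappaB. Among other cells' genes, B cell Igkc and Ighm and the MHC class II genes H2-Aa, H2-Ab1 and Cd74 were lower in Kaede-red, where B cells were few, the MHC class II genes in cells with neither receptor too, and Tcrg-C2 and Trgv2 were higher; their part in other differences was not tested. Without cells holding other cells' markers, the calls of Eomes (-0.37), Cd7, Cd83, Gzmc, Tcrg-C2, Trgv2 and these B cell and MHC class II genes were lost.

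**Figure D5:**
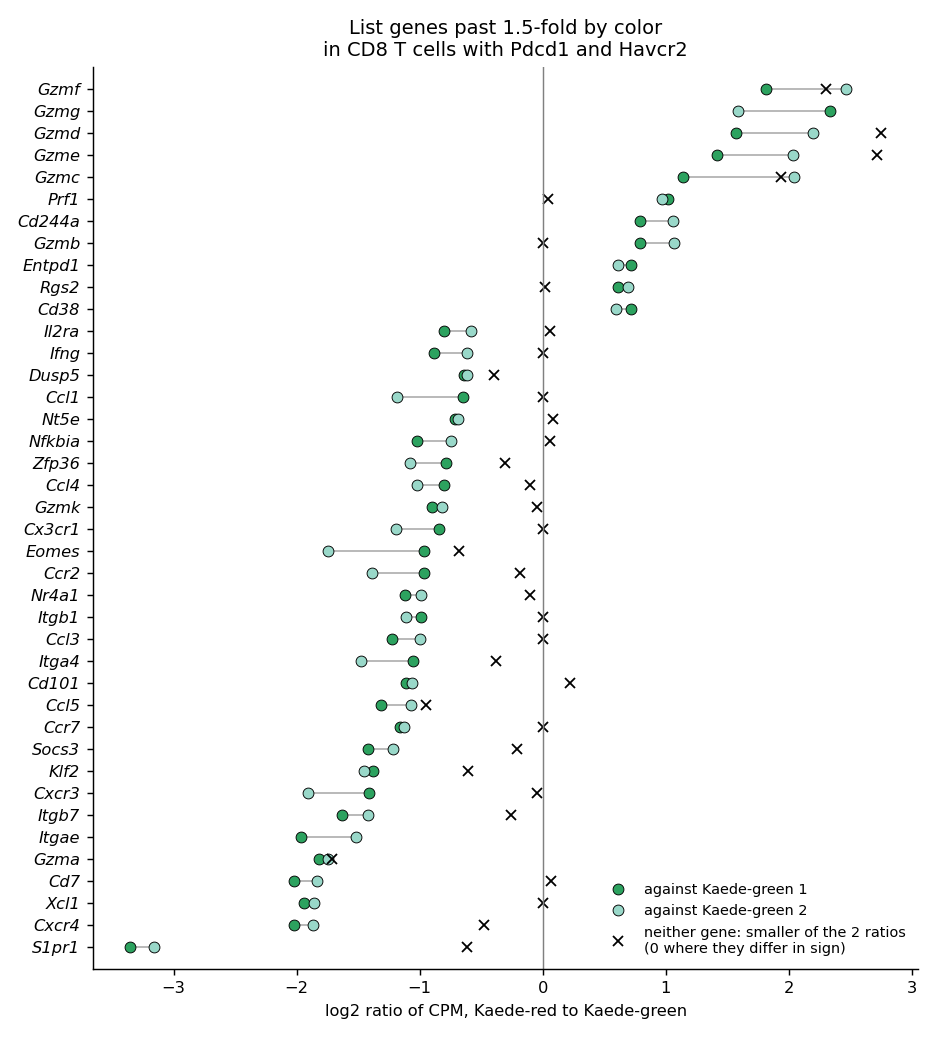
log2 ratio of CPM in Kaede-red to each KG+ library for the list genes called by size and reported here in Pdcd1+Havcr2+ cells; circles are the 2 ratios and crosses the smaller ratio in cells with neither transcript (0 where the 2 differ in sign, absent below 20 CPM). Gzmf lies at 1.82 or above and S1pr1 at -3.16 or below in Pdcd1+Havcr2+ cells, and the cross for S1pr1 lies at -0.61.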

How the data were processed

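Single-cell RNA-seq (10x Genomics 3′ v3) of 3 libraries was used. Raw UMI counts for each gene in each called cell were deposited by the authors; per the labels they were made with Cell Ranger 6.1.2 on mm10, whereas the file headers name another Cell Ranger version. No further scaling was applied. Barcodes passed with 1000 to 6000 genes detected and a mitochondrial share of UMIs below 7.5%, and classes were set by UMIs of single genes. The members, the gene lists and the tests were chosen with earlier results of these data known, so no list is independent evidence.

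UMIs were summed per library and class, giving 6 sums per comparison. edgeR 4.0.16 (R 4.3.3) was fitted with the library as a block, since the 2 sums of a library come from the same animals. It used TMM factors, filterByExpr, the quasi-likelihood test and Benjamini-Hochberg over all genes tested. The p-values weigh a class difference against how much that difference varied between the libraries, not against the spread of library levels. The libraries, 2 KG+ and 1 KR+, are not replicates of 1 condition. Genes of the rule were never counted as calls. On simulated counts with 50 genes at each fold, the test recovered 32% of 1.5-fold and 86% of 2-fold changes against cells with neither receptor (10850 genes). Against cells with Pdcd1 only it recovered 36% and 90% (11480 genes). The simulation set the same spread for every gene and changed only genes past a floor of counts. Recovery for scarcer or more variable genes was therefore not measured. Colors were compared by size only, with 0.5 UMIs added to each sum. Intervals are exact (Poisson, Clopper-Pearson) and cover counting error only.

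The genes named from each list were those called with the largest absolute change, up to 3 each way, plus Tox, Tcf7, Slamf6, Lag3, Tigit, Entpd1, Gzmb, Gzmk, Ifng and Gldc; outside the lists, the 5 widest in each direction with a mean of at least 20 CPM in the higher class. Between colors, list genes called and the 5 highest and 5 lowest others were named, except for a result not reported here. Others (Ctla4, Cd101, Cd160, Tnf, Pgk1, the levels in other classes and the Havcr2 bins) were chosen after their values were seen.

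Alternatives were DESeq2 1.42.0, library totals without TMM, no filter, no block, each library left out, cells of equal depth or thinned to 3000 UMIs, at least 2 UMIs of each gene, 0 UMIs of Mki67 and Top2a, and cells without other cells' markers or without the top 5% of Scrublet scores. Doublets were not removed otherwise, as Scrublet (scanpy 1.11.5) called 349, 4 and 1 cells and so did not work in 2 libraries. Promoters are RefSeq GRCm38.p6; gene positions are GENCODE GRCm38.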

Additional observations from a re-analysis of the deposited data

Results flagged for a closer look

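The following 9 genes moved between Pdcd1+Havcr2+ cells and cells with neither receptor in one direction in both KG+ libraries and in the other direction in Kaede-red; with 1 KR+ library, the difference was not tested. Itgae had a log2 ratio of 1.33 and 1.05 in Kaede-green 1 and 2 and of -0.93 in Kaede-red, Xcl1 of 1.63 and 0.30 against -0.68, and Ccr2 of 0.28 and 0.42 against -0.50. Ctsw, the granule protease cathepsin W, had 0.24 and 0.19 against -0.17. Isg20 had -0.16 and -0.16 against 0.14, and Fcer1g -0.36 and -0.19 against 0.25. The MHC class II genes, which mark antigen-presenting cells, had ratios below 0 in both KG+ libraries and above 0 in Kaede-red: H2-Ab1 had -0.96 and -0.79 against 2.80, H2-Aa -1.17 and -0.62 against 2.39, and Cd74 -0.49 and -0.27 against 1.42. Their sizes in Kaede-red are imprecise, with intervals of 1.84 to 4.22 for H2-Ab1, 1.17 to 4.45 for H2-Aa and 1.06 to 1.83 for Cd74. The myeloid genes as a group summed to 180 CPM in cells with neither receptor of Kaede-red, with C1qa, C1qb, C1qc, Csf1r, Fcgr1, Xcr1 and Siglech at 0, against 468 and 454 in the KG+ libraries; their part was not tested.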

How the results depend on the processing

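Counts of called genes depended on the method, while directions mostly held. Against cells with neither receptor, DESeq2 called 1471 higher and 1289 lower, and leaving out 1 library gave 1689 to 2018 higher and 1572 to 1974 lower. Library totals without TMM gave 2841 and 1690, so the higher share of calls went from 52.9% to 62.7%. Against cells with Pdcd1 only, DESeq2 called 530 and 533, equal depth 563 and 527, no replicate block 8 and 7, and leaving out 1 library 662 to 808 and 831 to 894. The block pairs the sums of a library; without it 1778 rose and 1584 fell against cells with neither receptor. Of the values for single genes, 91 against cells with Pdcd1 only and 10 against cells with neither lost their call without the block. No paired analysis was possible for color because Kaede-red is 1 library.

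Between colors in Pdcd1+Havcr2+ cells, 2-fold calls were 12 higher and 60 lower, a floor of 50 CPM gave 29 and 78, thinning 77 and 227, and leaving out 1 KG+ library 92 to 128 higher and 196 to 316 lower. In cells with neither receptor these were 15 and 14 for 2-fold, 15 and 31 for 50 CPM, 159 and 156 thinned, and 133 to 191 and 125 to 190 without 1 KG+ library. Of the genes named by color in Pdcd1+Havcr2+ cells, Eomes, Cd7, Tcrg-C2, Trgv2, Ighm, Igkc, Cd74, H2-Aa, H2-Ab1, Cd83 and Gzmc were no longer called without cells holding other cells' markers. Without top Scrublet scores Entpd1, Rgs2, Eomes, Cd7, Ighm, Igkc, Cd74 and H2-Ab1 were not. With 2 UMIs of each gene Entpd1, Cd244a, Ifng, Eomes, Gzmc, Gzmd, Gzme, Cd7, Cd101, Itga4, Il2ra, Zfp36, S1pr1, Cd74, Igkc, Ccr2 and Dusp5 were not. Thinned to 3000 UMIs, 50 of the color values checked in Pdcd1+Havcr2+ cells stayed the same and 8 moved. Those cells were chosen before thinning, so the part of depth in choosing them was not tested. The rule also calls no gene below 20 CPM in every library, so a lost call need not mean a smaller ratio. With fewer libraries fewer conditions apply, by construction.

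The share of Pdcd1+Havcr2+ cells moved to 7.41%, 12.8% and 17.3% thinned, out of fewer CD8 T cells. It moved to 7.51%, 14.9% and 27.6% with 2 UMIs of each gene. With no limit on Mki67 plus Top2a it was 31.5% in Kaede-green 2 and 46.2% in Kaede-red. Of the values for single genes, 2811 kept their direction and call, 232 lost the call, 160 moved and 5 reversed: against cells with neither receptor, Gzmk (0.063) and Ccl5 (0.53) at equal depth and Siglech (-0.10) without top Scrublet scores; against cells with Pdcd1 only, Maf (0.018) at equal depth and Il17a (-0.18) with 2 UMIs of each gene. The cause of these changes was not tested. Depth limits genes under about 20 CPM, and every statement on color rests on 1 KR+ library.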
